A study of Sus scrofa with 6 samples.

Results

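Steroid hormone receptors act through partner proteins, and 9 genes that encode such partners were examined in the pig oviduct: FKBP4 and PTGES3 (cochaperones), NCOA1, NCOA2 and NCOA3 (coactivators), MED1 (a Mediator subunit), CREBBP and EP300 (acetyltransferases) and NCOR1 (a corepressor). They were chosen by name, with earlier results of these data known. All 9 had a row among the 35670 genes of the deposited count table. They were all among the 17920 genes that passed the filter on low counts. The tissue was the ampulla, the oviduct segment in which fertilisation takes place, taken from female pigs (Sus scrofa) at the early luteal stage (3 libraries) or the post-ovulatory stage (3 libraries). The labels give no treatment, strain or age. They also do not say whether replicates are different animals, and every p-value here therefore reflects the variation among these 6 libraries, part or all of which could be technical. The comparison asks whether the genes differ between early luteal tissue, when the corpora lutea form, and post-ovulatory tissue.

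A steroid receptor without hormone is held in a form able to bind it by the chaperone HSP90, together with PTGES3 (also called p23) and an immunophilin such as FKBP4 (also called FKBP52). With hormone bound, the receptor sits on DNA and recruits coactivators of the NCOA family, which bring in the acetyltransferases CREBBP and EP300, while MED1 links the receptor to the Mediator complex and so to RNA polymerase II. NCOR1 does the reverse and brings histone deacetylases to genes that are to be silenced. In mice, females without Fkbp4 are infertile, with a uterus that responds poorly to progesterone, and the oviduct of mammals is a target of both oestrogen and progesterone.

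FKBP4 lay lower in every early luteal library than in any post-ovulatory one, which was so for 9.57% of all tested genes. It passed an adjusted p of 0.05 in DESeq2 but not in edgeR or limma voom. The other 8 genes passed in none of these. FKBP4 stood 3.56-fold lower in early luteal than in post-ovulatory tissue, with a 95% interval of 1.92-fold to 6.60-fold lower. Among the other 8 genes the largest absolute log2 fold change was 0.62 (NCOA2), and each of their 95% intervals held 0. By edgeR's quasi-likelihood test none of the 9 genes passed a Benjamini-Hochberg adjusted p of 0.05, and 0 of 17920 genes did (percent called: 0). At an unadjusted p under 0.05 edgeR counted 1 of the 9, FKBP4, where it counted 7.11% of all tested genes. DESeq2 also called 1 of the 9, FKBP4, where it called 1.02% of the 17285 genes to which it gave an adjusted p, and limma voom called 0 of the 9 and 0 of 17920 genes (at an unadjusted p under 0.05, 1 of the 9 and 1277 genes, or 7.13%, of all). Levels are given as CPM, counts over the TMM-scaled library total times 1e6. They are not corrected for transcript length, so levels of different genes are not compared. In bulk tissue fewer cells of a type and less RNA per cell cannot be told apart.

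The libraries held 7370723 to 30954222 counts, and the 9 genes had between 268 (NCOA1, post-ovulatory replicate 2) and 16065 counts (FKBP4, post-ovulatory replicate 3) in a library. Early luteal replicate 2 stood apart: it had a score of 176 on the first principal component (55.9% of the variance), against -51.0 to 2.39 for the others, and held the highest level of 27.0% and the lowest of 39.4% of all tested genes. Post-ovulatory replicate 1 stood apart on the second component (18.3%), at 85.1 against -68.2 to 17.1. The labelled tissue was checked against marker genes. The oviduct glycoprotein gene OVGP1 was counted in every library, at 292 to 2356 CPM in early luteal and 156 to 10688 CPM in post-ovulatory tissue, and the ciliary factor FOXJ1 at 79.3 to 413 CPM in early luteal and 199.9 to 654 CPM in post-ovulatory tissue; PAX8 was not analysed here. Markers of granulosa or luteal cells summed to at most 1.90 CPM, and FSHR had no count.

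FKBP4 (ENSSSCG00000000743) lies on chromosome 5 at 67314010 to 67321628 of Sscrofa11.1, by its symbol in RefSeq. It encodes an immunophilin with a domain of tetratricopeptide repeats that binds the end of HSP90. It stood at 230, 146 and 166 CPM in early luteal replicates 1, 2 and 3, against 992, 425 and 514 CPM in post-ovulatory replicates 1, 2 and 3. The stages did not overlap, and post-ovulatory replicate 1 was the highest by far. The means were 181 ± 44.0 CPM (early luteal) and 643 ± 305 CPM (post-ovulatory; SD, n = 3 each). The log2 fold change was -1.83 ± 0.39 (SE), the unadjusted p was 0.00137 and the adjusted p was 0.554 in edgeR, whereas the adjusted p was 0.00370 in DESeq2 and 0.477 in limma voom. FKBP4 had the 44th lowest unadjusted p of all tested genes in edgeR. Its log2 fold change came to -1.39 with post-ovulatory replicate 1 left out and to -1.70 with early luteal replicate 2 left out (edgeR, adjusted p = 0.985 and 0.586). Markers of fibroblasts and stroma ran the same way as FKBP4 between the stages: 8 of 9 were lower in early luteal tissue, 4 of the 9 had an unadjusted p under 0.05 and 0 passed the adjusted threshold (edgeR), none was at 0, and their summed level was 772 to 1060 CPM in early luteal and 1182 to 2568 CPM in post-ovulatory libraries. Those 4 were all lower, as were 3.54% of all tested genes at that p. The summed levels of the other 10 marker lists (epithelial, muscle, vascular, blood, immune and ovarian cells) overlapped between the stages, smooth muscle for instance at 1604 to 12167 CPM in early luteal and 3772 to 7120.3 CPM in post-ovulatory libraries. Gene by gene, 8 of 8 macrophage markers (median log2 fold change -0.55), 4 of 4 tested markers of B and plasma cells (-0.99), 6 of 7 of T and NK cells (-0.27) and 5 of 7 of endothelium (-0.57) were also below their post-ovulatory level. Of these, the endothelial genes PLVAP (-1.52) and FLT1 (-1.58) had an unadjusted p under 0.05 and stages that did not overlap (edgeR, adjusted p = 0.677 and 0.664). The endothelial genes EMCN (0.54) and KDR (0.50) were above, and the stages of EMCN did not overlap either. Stages did not overlap in 9.57% of all tested genes with early luteal lower and in 7.61% with it higher. For smooth muscle 7 of 8 markers were above (median 0.58). FKBP4 was highest in post-ovulatory replicate 1 and the stromal sum in post-ovulatory replicate 2. Both were lower in every early luteal library than in any post-ovulatory one. The part of these cell types in the FKBP4 difference was not tested.

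**Figure D1:**
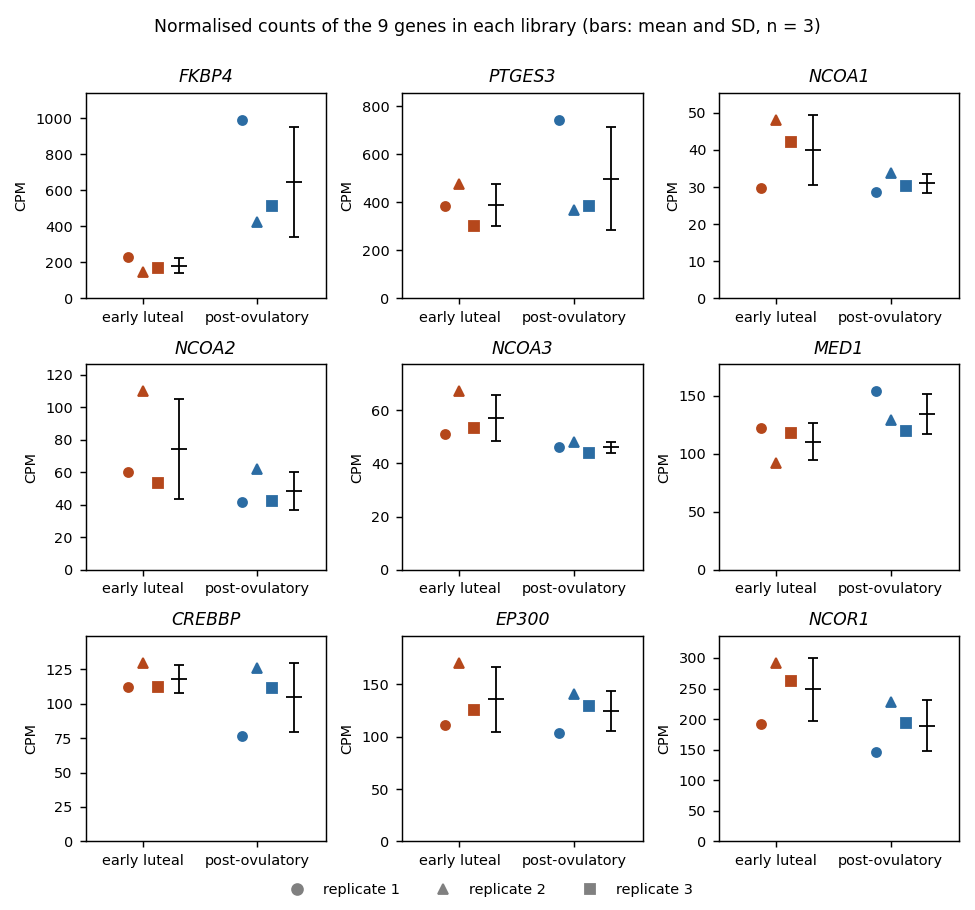
Level of each of the 9 genes (CPM, linear axes from 0) in the 3 early luteal libraries (orange, left) and the 3 post-ovulatory libraries (blue, right), with the mean and SD of each stage as a bar beside the points. FKBP4 stands at 146 to 230 CPM in early luteal and at 425 to 992 CPM in post-ovulatory libraries, while the stages overlap in the other genes except NCOA3.

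PTGES3 (ENSSSCG00000000406, chromosome 5, 22000335 to 22022830), the cochaperone that stabilises the complex of HSP90 and receptor, overlapped between the stages. It stood at 385, 477 and 302 CPM in early luteal replicates 1, 2 and 3, against 744, 368 and 382 CPM in post-ovulatory replicates 1, 2 and 3. Only post-ovulatory replicate 1 lay above the early luteal libraries. The log2 fold change was -0.36 ± 0.36 (SE; edgeR, adjusted p = 0.824), with a 95% interval from 0.442-fold to 1.37-fold. Without post-ovulatory replicate 1 it turned to 0.03 (edgeR, adjusted p = 0.996).

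**Figure D2:**
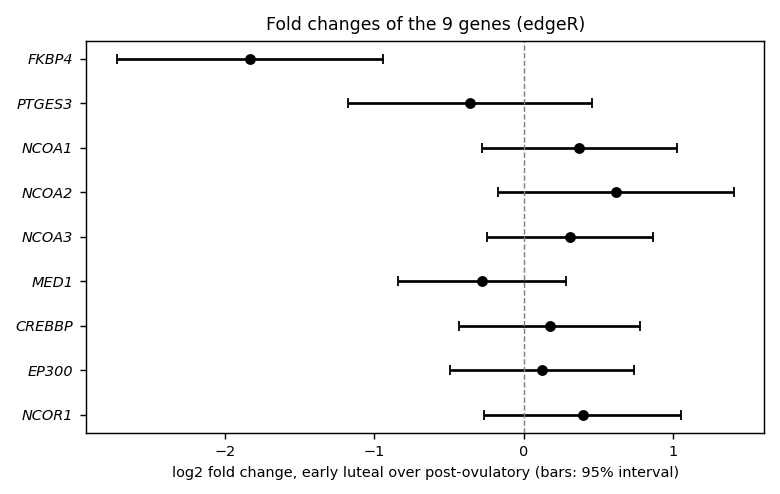
Log2 fold change of each gene, early luteal over post-ovulatory, with its 95% interval from the edgeR fit; the dashed line marks no difference. The interval of FKBP4 runs from -2.72 to -0.94 and those of the other 8 genes hold 0.

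The 3 coactivators of the NCOA family lay slightly higher in early luteal tissue, and none passed the threshold. NCOA1 (ENSSSCG00000008581, chromosome 3, 113997214 to 114251080), the first steroid receptor coactivator to be described, stood at 29.8, 48.2 and 42.3 CPM in early luteal replicates 1, 2 and 3, against 28.7, 33.9 and 30.3 CPM in post-ovulatory replicates 1, 2 and 3. Early luteal replicate 1 lay among the post-ovulatory libraries. Its log2 fold change was 0.37 ± 0.29 (SE; edgeR, adjusted p = 0.780), and it was 0.22 without early luteal replicate 2 (adjusted p = 0.799). NCOA2 (ENSSSCG00000006194, chromosome 4, 64888029 to 65245757), which also serves the glucocorticoid receptor, stood at 59.9, 109.9 and 53.6 CPM in early luteal replicates 1, 2 and 3, against 41.4, 61.9 and 42.5 CPM in post-ovulatory replicates 1, 2 and 3. Early luteal replicate 2 was far above all others, and the stages overlapped. The log2 fold change of NCOA2 was 0.62 ± 0.35 (SE; edgeR, adjusted p = 0.718), and it was 0.22 without early luteal replicate 2 (adjusted p = 0.806).

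NCOA3 (ENSSSCG00000007458, chromosome 17, 49528275 to 49660471), a coactivator of the oestrogen receptor that is amplified in some human breast cancers, was the other gene besides FKBP4 whose stages did not overlap. It stood at 50.9, 67.2 and 53.3 CPM in early luteal replicates 1, 2 and 3, against 46.4, 48.0 and 43.8 CPM in post-ovulatory replicates 1, 2 and 3. All 3 early luteal libraries lay above all 3 post-ovulatory ones, with a gap of 2.95 CPM between the nearest. The log2 fold change was 0.31 ± 0.24 (SE; edgeR, adjusted p = 0.782), with a 95% interval from 0.844-fold to 1.82-fold, and it was 0.18 without early luteal replicate 2 (adjusted p = 0.785). Stages that do not overlap were found in 2 of the 9 genes and in 17.2% of all tested genes. The shares of all genes were 7.61% with early luteal higher (as NCOA3) and 9.57% with it lower (as FKBP4), and a count of 2 in 9 is near that background. NCOA3 also varied little within a stage: the pooled SD of its log2 CPM was 0.16, against a median of 0.44 over the 10801 tested genes with a mean of at least 10 CPM.

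MED1 (ENSSSCG00000017505, chromosome 12, 22830405 to 22872420), through which nuclear receptors contact Mediator, lay slightly lower in early luteal tissue and likewise did not pass the threshold. It stood at 122, 92.3 and 118 CPM in early luteal replicates 1, 2 and 3, against 154, 129 and 120.1 CPM in post-ovulatory replicates 1, 2 and 3. Early luteal replicate 1 lay between the post-ovulatory libraries. The log2 fold change was -0.28 ± 0.25 (SE; edgeR, adjusted p = 0.802), with a 95% interval from 0.557-fold to 1.22-fold, and it was -0.17 without early luteal replicate 2 (adjusted p = 0.829). The lowest MED1 level was in early luteal replicate 2, the library in which the NCOA genes were highest.

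The acetyltransferases CREBBP and EP300, closely related enzymes that acetylate histones H3 and H4 at promoters and enhancers, had the smallest fold changes of the 9. CREBBP (ENSSSCG00000007951, chromosome 3, 38388366 to 38530243) stood at 112, 129.5 and 112 CPM in early luteal replicates 1, 2 and 3, against 76.8, 126 and 111 CPM in post-ovulatory replicates 1, 2 and 3. Apart from post-ovulatory replicate 1, which was low, the libraries of the stages lay close together. EP300 (ENSSSCG00000000068, chromosome 5, 7311165 to 7394515) stood at 111, 170.3 and 125 CPM in early luteal replicates 1, 2 and 3, against 104, 141 and 129 CPM in post-ovulatory replicates 1, 2 and 3. Its highest value was again in early luteal replicate 2 and its lowest in post-ovulatory replicate 1. The log2 fold changes were 0.17 ± 0.27 for CREBBP and 0.12 ± 0.27 for EP300 (SE; edgeR, adjusted p = 0.886 and 0.924). Without post-ovulatory replicate 1 they were -0.02 and -0.01, and without early luteal replicate 2 that of EP300 was -0.08 (edgeR, lowest adjusted p of the 3 values 0.931). The 95% intervals ran from 0.741-fold to 1.72-fold for CREBBP and from 0.711-fold to 1.67-fold for EP300. Those of NCOA3, MED1, CREBBP and EP300 lay within 2-fold in either direction.

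NCOR1 (ENSSSCG00000018039, chromosome 12, 59256868 to 59392564), the corepressor that carries the deacetylase HDAC3 to silenced genes, also lay slightly higher in early luteal tissue without passing the threshold. It stood at 192, 292 and 263 CPM in early luteal replicates 1, 2 and 3, against 146, 229 and 193 CPM in post-ovulatory replicates 1, 2 and 3. The stages overlapped, with early luteal replicate 1 just under post-ovulatory replicate 3. The log2 fold change was 0.39 ± 0.29 (SE; edgeR, adjusted p = 0.775), with a 95% interval from 0.833-fold to 2.08-fold, and it was 0.26 without early luteal replicate 2 and 0.22 without post-ovulatory replicate 1 (adjusted p = 0.794 and 0.985).

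**Figure D3:**
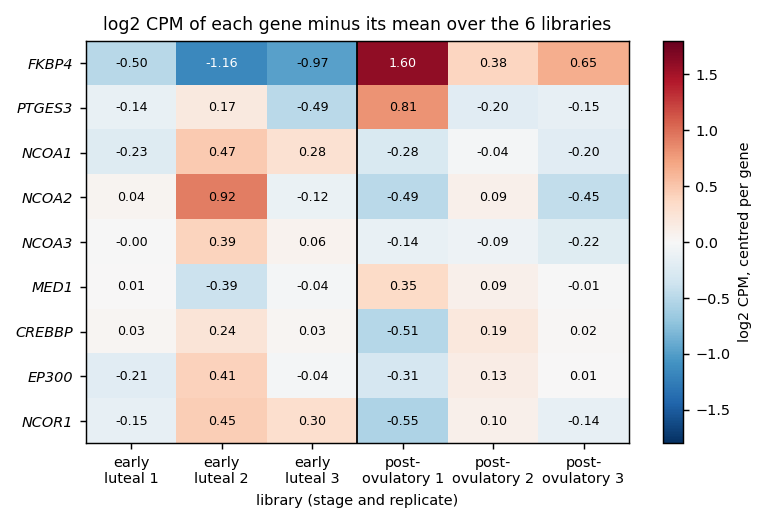
Log2 CPM of each gene minus its mean over the 6 libraries, early luteal libraries to the left of the line and post-ovulatory ones to the right; red is above and blue below the gene's mean. Early luteal replicate 2 holds the highest value of NCOA1, NCOA2, NCOA3, NCOR1, CREBBP and EP300, and post-ovulatory replicate 1 the highest of FKBP4, PTGES3 and MED1.

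Across the 6 libraries 6 of the 9 genes were highest in early luteal replicate 2 and 3 in post-ovulatory replicate 1, and no gene had its highest value in another library. The same libraries held the highest value of 27.0% and 20.3% of all tested genes. Of the 6 genes highest in early luteal replicate 2, NCOA1, NCOA2, NCOR1, CREBBP and EP300 had their lowest value in post-ovulatory replicate 1, while NCOA3 was lowest in post-ovulatory replicate 3. The within-stage SD of log2 CPM was below the 0.44 median for NCOA1 (0.27), NCOA3, NCOR1 (0.32), MED1 (0.20), CREBBP (0.27) and EP300 (0.28), and above it for NCOA2 (0.46), PTGES3 (0.47) and FKBP4 (0.51).

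RefSeq spans of other genes touched 3 of the 9. The span of PIGL overlaps NCOR1 by 29 bases, that of CDK12 overlaps MED1 by 993 bases and that of a long non-coding RNA overlaps NCOA2 by 1264 bases. Since the strand setting of the counting is not given in the sources used here, reads of these stretches could have been split between the genes. FKBP4, PTGES3, NCOA1, NCOA3, CREBBP and EP300 had no overlapping span.

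FKBP4 was set beside the other parts of the HSP90 machine, a list of 23 chaperone and cochaperone genes that were all tested. Like all lists here, it was chosen with earlier results of these data known. Its counts beside those of all tested genes are therefore a description and not a test. Early luteal levels were below post-ovulatory ones for 19 of them and above for 4, with a median log2 fold change of -0.50, against -0.03 over all tested genes. None passed the adjusted threshold in edgeR and none in DESeq2. At an unadjusted p under 0.05 edgeR counted 6 lower and 1 higher, where it counted 3.54% lower and 3.57% higher over all tested genes. In 9 of the 23 the stages did not overlap with early luteal libraries lower, which was so for 9.57% of all tested genes. Post-ovulatory replicate 1 held the highest value of 16 of the 23. Without it 3 of the 23 were lower at an unadjusted p under 0.05 and the median was -0.39, while without early luteal replicate 2 these were 6 and -0.52 (libraries left out after their values were seen). Over all tested genes the share lower at that p came to 1.42% when post-ovulatory replicate 1 was left out and to 4.22% when early luteal replicate 2 was.

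STIP1, the adaptor that hands a receptor from HSP70 to HSP90, stood at 122, 84.7 and 87.8 CPM in early luteal replicates 1, 2 and 3, against 320.5, 177 and 194 CPM in post-ovulatory replicates 1, 2 and 3. It was below in every early luteal library (log2 fold change -1.23 ± 0.32, SE; adjusted p = 0.596 in edgeR and 0.0653 in DESeq2). DNAJA1, an HSP40 partner of HSP70, stood at 214, 262 and 181 CPM in early luteal replicates 1, 2 and 3, against 944, 368 and 406 CPM in post-ovulatory replicates 1, 2 and 3 (log2 fold change -1.39 ± 0.41, SE; edgeR, adjusted p = 0.649). Its stages did not overlap either, and post-ovulatory replicate 1 was again the highest. Without that library the log2 fold change of DNAJA1 was -0.84 (edgeR, adjusted p = 0.985). HSP90AA1, the inducible HSP90, which had the highest mean CPM of the list (uncorrected for length), stood at 4153, 3794 and 2539 CPM in early luteal replicates 1, 2 and 3, against 5445, 3699 and 3582 CPM in post-ovulatory replicates 1, 2 and 3. Its stages overlapped (log2 fold change -0.28; edgeR, adjusted p = 0.857), and its value came to -0.07 when post-ovulatory replicate 1 was left out and to -0.11 when early luteal replicate 3 was.

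PPID and PPP5C, which like FKBP4 carry tetratricopeptide repeats that bind HSP90, were picked for naming after their values were seen. PPID averaged 75.4 ± 13.1 CPM (early luteal) and 124 ± 41.7 CPM (post-ovulatory; SD, n = 3 each; edgeR, adjusted p = 0.685). PPP5C averaged 38.3 ± 2.09 CPM (early luteal) and 54.2 ± 11.6 CPM (post-ovulatory; edgeR, adjusted p = 0.708). Both lay lower in every early luteal library, by log2 fold changes of -0.72 and -0.50. Other genes of the list with tetratricopeptide repeats, which apart from STIP1 and FKBP5 were also picked afterwards, did not all run this way. The stages overlapped for FKBP5 (log2 fold change 1.63), ST13 (0.21), UNC45A (0.20), SUGT1 (-0.16), FKBP8 (-0.43) and STUB1 (-0.50). They did not overlap for SGTA (-0.46) and STIP1 (-1.23). CDC37, a cochaperone that brings kinases to HSP90 and was also picked afterwards, had a log2 fold change of -0.78 ± 0.24 (SE; edgeR, adjusted p = 0.664).

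**Figure D4:**
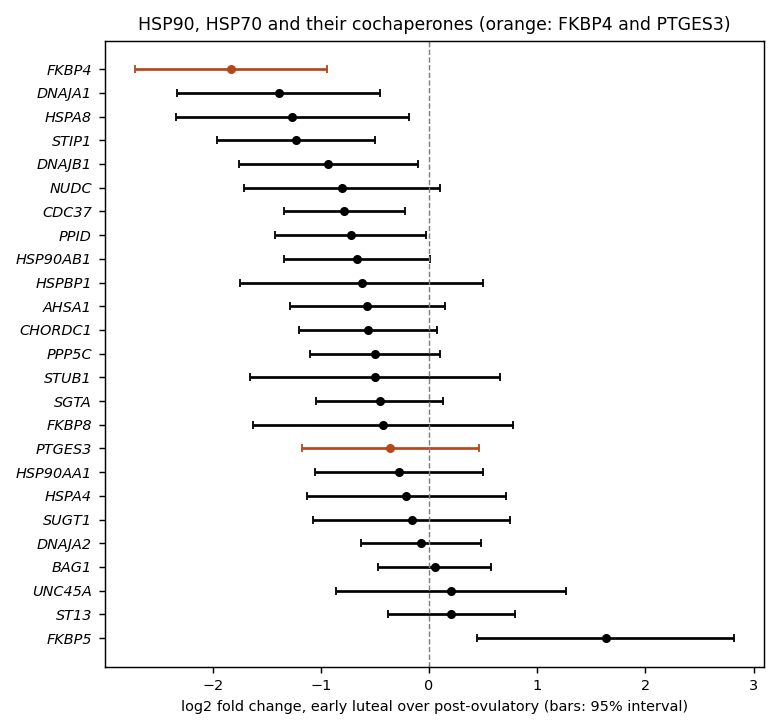
Log2 fold change, early luteal over post-ovulatory, with 95% interval (edgeR), of the 23 genes of the HSP90 machine (black) and of FKBP4 and PTGES3 (orange), ordered by fold change. FKBP4 has the lowest value (-1.83) and FKBP5 the highest (1.63); 0 of the genes passed an adjusted p of 0.05.

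FKBP5, the immunophilin that competes with FKBP4 for its place on HSP90 and lowers hormone binding by the glucocorticoid and progesterone receptors, lay at the other end of the list. It stood at 100.03, 347 and 319.6 CPM in early luteal replicates 1, 2 and 3, against 118, 84.2 and 45.5 CPM in post-ovulatory replicates 1, 2 and 3. The stages overlapped through early luteal replicate 1. FKBP5 itself is induced by progesterone and glucocorticoids in many tissues.

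The count of FKBP4 over that of FKBP5 within a library does not depend on scaling. This ratio was 2.30, 0.420 and 0.521 in early luteal replicates 1, 2 and 3, against 8.43, 5.04 and 11.3 in post-ovulatory replicates 1, 2 and 3. All early luteal ratios lay below all post-ovulatory ones, with early luteal replicate 1 the nearest to them. The log2 ratio averaged -0.33 ± 1.34 in early luteal and 2.97 ± 0.59 in post-ovulatory tissue (SD, n = 3 each), a difference of -3.30, or a 9.84-fold lower ratio. An exact permutation test (two-sided) gave p = 0.1, the smallest that 3 against 3 libraries allow, and 0.4 after Benjamini-Hochberg adjustment over the 4 ratios computed, of which 3 are reported here. The pair was chosen with the FKBP5 values known.

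The ratios of CREBBP to EP300 and of NCOA1 to NCOA3 overlapped between the stages. CREBBP over EP300 was between 0.761 and 1.01 in early luteal and between 0.741 and 0.893 in post-ovulatory libraries (difference in mean log2 ratio 0.09; exact permutation test, p = 0.5). NCOA1 over NCOA3 was between 0.584 and 0.793 in early luteal and between 0.620 and 0.705 in post-ovulatory libraries (difference 0.05; exact permutation test, p = 0.8). The adjusted p-values of these exact tests were 0.667 and 0.8.

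**Figure D5:**
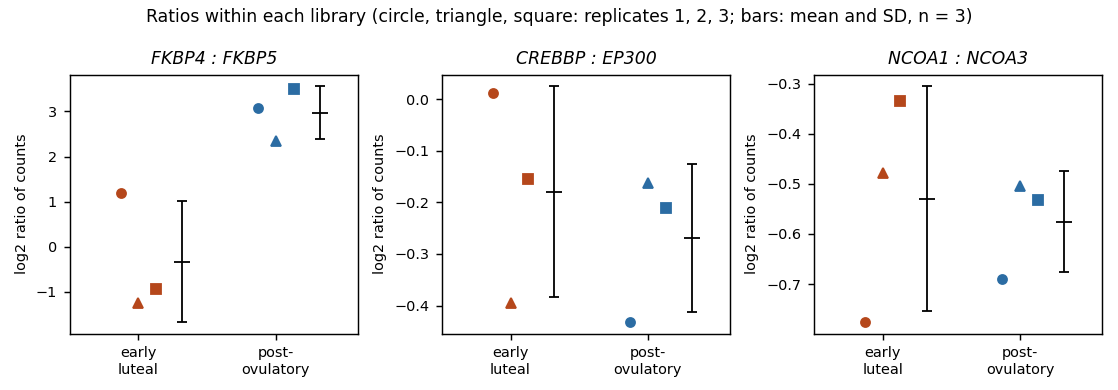
Log2 ratio of the counts of 2 genes within each library, early luteal (orange, left) and post-ovulatory (blue, right), with mean and SD beside the points; the axes differ between panels. The stages are separate for FKBP4 over FKBP5 (means -0.33 and 2.97) and overlap for CREBBP over EP300 and NCOA1 over NCOA3.

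Further coactivators gave a mixed picture. Of 25 listed genes 22 were tested, 9 of them above and 13 below their post-ovulatory level, with a median log2 fold change of -0.18. None passed in edgeR, and 2 were higher and 2 lower at an unadjusted p under 0.05, where 3.57% of all tested genes were higher and 3.54% lower. Stages did not overlap in 2 of the 22 with early luteal higher and in 6 with it lower, against 7.61% and 9.57% of all tested genes. CITED2, which binds CREBBP and EP300 and competes with other factors for them, stood at 23.4, 95.9 and 73.9 CPM in early luteal replicates 1, 2 and 3, against 11.8, 18.9 and 17.4 CPM in post-ovulatory replicates 1, 2 and 3. All early luteal libraries lay above the post-ovulatory ones, whereas CREBBP and EP300 overlapped. Its log2 fold change was 2.00 ± 0.50 (SE; adjusted p = 0.594 in edgeR and 0.0247 in DESeq2, the 1 gene of the list that DESeq2 called). KAT2A, a histone acetyltransferase of the SAGA complex, averaged 13.9 ± 6.38 CPM (early luteal) and 30.8 ± 1.84 CPM (post-ovulatory; SD, n = 3 each; edgeR, adjusted p = 0.677). The remaining genes under that unadjusted p were PPARGC1A (log2 fold change 1.85), a metabolic coactivator whose stages overlapped, and the arginine methyltransferase gene PRMT1 (-1.17). KAT2A and PRMT1 lay lower in every early luteal library than in any post-ovulatory one. The RNA helicase gene DDX5, with the highest mean CPM of the list (uncorrected for length), stood at 1224 to 1699 CPM in early luteal and 1469.9 to 1520.0 CPM in post-ovulatory libraries.

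Among further corepressors 14 of 18 tested genes were lower. Their median log2 fold change was -0.21, against -0.03 over all tested genes, and 0 passed the threshold in edgeR and 0 in DESeq2. Stages did not overlap in 1 of the 18 with early luteal higher and in 1 with it lower, against 7.61% and 9.57% of all tested genes. NRIP1, which recruits deacetylases to hormone-bound receptors, was the 1 gene at an unadjusted p under 0.05 (log2 fold change -0.98, edgeR adjusted p = 0.664). Over all tested genes 3.54% were lower at that p. PHB2, a repressor of the oestrogen receptor, stood at 51.5, 21.5 and 59.1 CPM in early luteal replicates 1, 2 and 3, against 80.4, 56.5 and 53.3 CPM in post-ovulatory replicates 1, 2 and 3, and overlapped. Its log2 fold change was -0.52 (edgeR, adjusted p = 0.779), and it was -0.20 without early luteal replicate 2, -0.80 without early luteal replicate 3 and -0.32 without post-ovulatory replicate 1. SAFB, with the highest mean CPM of the list (uncorrected for length), stood at 249.7 to 391 CPM in early luteal and 314 to 373 CPM in post-ovulatory libraries.

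The other Mediator subunits lay around 0: 13 of 30 tested genes were higher and 17 lower, with a median log2 fold change of -0.04 and 0 past the threshold (edgeR; DESeq2 also 0). MED13L, a subunit of the kinase module of Mediator, stood at 198, 251 and 247 CPM in early luteal replicates 1, 2 and 3, against 156, 143 and 157 CPM in post-ovulatory replicates 1, 2 and 3. Its stages did not overlap (log2 fold change 0.61, edgeR unadjusted p = 0.0336, adjusted p = 0.685), and it was the 1 subunit at an unadjusted p under 0.05. MED21, of the middle module, averaged 28.6 CPM (early luteal) and 19.4 CPM (post-ovulatory) and did not overlap either (log2 fold change 0.56, edgeR adjusted p = 0.736). Its log2 fold change was 0.35 without post-ovulatory replicate 1. Over all tested genes 3.57% were higher at an unadjusted p under 0.05. Stages did not overlap in 2 of the 30 subunits with early luteal higher and in 1 with it lower, against 7.61% and 9.57% of all tested genes.

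Of the receptors these proteins serve, 4 of 5 were tested (ESR2 was not), 2 of them higher and 2 lower, and edgeR called 0. The progesterone receptor gene PGR stood at 9.73, 13.4 and 12.9 CPM in early luteal replicates 1, 2 and 3, against 65.4, 35.6 and 50.9 CPM in post-ovulatory replicates 1, 2 and 3. Like FKBP4 it was lower in every early luteal library (adjusted p = 0.333 in edgeR and 3.32e-05 in DESeq2). The mineralocorticoid receptor gene NR3C2 stood at 10.628, 16.1 and 16.4 CPM in early luteal replicates 1, 2 and 3, against 7.45, 8.46 and 10.615 CPM in post-ovulatory replicates 1, 2 and 3. All early luteal libraries lay above the post-ovulatory ones, by a margin of 0.013 CPM between the nearest pair (log2 fold change 0.70 ± 0.40, SE; edgeR, adjusted p = 0.723). The oestrogen receptor gene ESR1 stood at 238 to 466 CPM in early luteal and 314 to 739 CPM in post-ovulatory libraries, which overlapped.

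The genes most like each of the 9 over the 6 libraries were taken by Pearson's r of log2 CPM, as a description. The libraries come from both stages and differ in depth, and both can move these values together. Each gene was picked from 12497 candidates over 6 libraries, so high values of r can come from the selection alone. For FKBP4 the genes most alike were STIP1 and KIF2C (r = 0.997 each), and for PTGES3 MYBL1 (0.997) and BUB1 (0.994). For MED1 they were SUV39H2 (0.995) and IQGAP3 (0.992). KIF2C stood at 2.38, 1.22 and 1.20 CPM in early luteal replicates 1, 2 and 3, against 22.3, 5.30 and 8.18 CPM in post-ovulatory replicates 1, 2 and 3, with post-ovulatory replicate 1 far above the rest. BUB1 stood at 28.1 CPM in post-ovulatory replicate 1 and at 3.52 CPM or less in the other libraries. For the NCOA genes they were GARIN1A (0.994) and PRRC1 (0.986) with NCOA1, ZC3H7A (0.995) and SLC13A1 (0.994) with NCOA2, and ANKDD1B (0.997) and PEX7 (0.996) with NCOA3. With NCOR1 they were TNRC6A (0.992) and TANGO6 (0.989), with CREBBP ANKRD27 (0.984) and ALG13 (0.981), and with EP300 MAP1S (0.997) and TCAIM (0.990). Some had few counts in a library, such as GARIN1A with 8 to 28 and ANKDD1B with 8 to 35.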

How the data were processed

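The authors deposited a single table of raw, whole-number counts, 1 row per Ensembl gene and 1 column per library. The libraries were stranded and made from polyadenylated RNA with a KAPA kit, and reads were paired (NextSeq2000), per the labels' protocols. The submitters' processing notes name FastQC (version 0.11.4), Trim Galore, STAR and Sscrofa11.1. Not given in the sources used here: the annotation release, the tool used for counting and whether it used strand. The header lacks its first tab, so columns were matched by the order of its words; 0 columns were left unused. Symbols were paired with 15623 identifiers, and coordinates came from RefSeq (Sscrofa11.1) by symbol.

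Early luteal was compared with post-ovulatory tissue, 3 libraries each, by edgeR 4.0.16 (R 4.3.3; quasi-likelihood test, robust, TMM, filterByExpr, two-sided), with Benjamini-Hochberg adjustment over 17920 genes and a threshold of 0.05. SE was obtained by dividing the size of the log2 fold change by the square root of F, and 95% intervals use the t quantile of the fit. DESeq2 1.42.0 and limma voom (limma 3.58.1) were alternatives. The edgeR, DESeq2 and voom fits were also run on simulated data, the outcome of which is not reported here and is not used as support. Log2 CPM used a prior count of 2. The 9 genes and all lists were chosen with earlier results of these data known. All 9 are named; of each related list, the 2 lowest unadjusted p and the highest mean CPM; and for each of the 9, the 2 genes with a symbol and a mean of at least 1 CPM with the highest Pearson's r. Of these lists 2 genes, and a ratio with 1 of them, are not reported here. Other names are marked as picked afterwards or complete a count of 5 or fewer.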

Additional observations from a re-analysis of the deposited data

How the results depend on the processing

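FKBP4 kept its direction in all 15 alternatives, with log2 fold changes from -2.07 to -1.39 when a library was left out and from -1.88 to -1.76 otherwise; it passed the threshold in DESeq2 alone (-1.85, adjusted p = 0.00370), and its adjusted p in the others ran from 0.116 to 0.985. DESeq2 called 1 of the 9 genes and 177 genes in all (83 higher, 94 lower), and edgeR without a filter on low counts called 8 in all (2 higher, 6 lower), where edgeR with the filter called 0; the cause was not tested. The other alternatives called 0 genes at a threshold of 0.05, and edgeR on all 6 libraries called 0 at 0.1. Leaving out a library moved NCOA1 between 0.22 and 0.57, NCOA2 between 0.22 and 0.83, NCOA3 between 0.18 and 0.41, NCOR1 between 0.22 and 0.57, and MED1 between -0.35 and -0.17. It moved CITED2 between 1.599 and 2.43, KAT2A between -1.52 and -0.86, STIP1 between -1.40 and -0.93, PGR between -2.28 and -1.87, and ESR1 between -0.79 and -0.20. It turned the sign of PTGES3 (-0.54 to 0.034), CREBBP (-0.020 to 0.32) and EP300 (-0.077 to 0.27), each within its own interval; of SAFB (-0.35 to 0.0059) and DDX5 (-0.085 to 0.13); and of the log2 ratios of CREBBP to EP300 (-0.0060 to 0.20) and NCOA1 to NCOA3 (-0.052 to 0.17). The ratio of FKBP4 to FKBP5 ran from -4.06 to -2.84. DDX5 was -0.046 without the filter. No pairing by replicate number was evident. Deviations of same-numbered libraries correlated at 0.0516, -0.0823 and 0.126, and 2 of 6 libraries correlated best with their own number. With 3 libraries a stage, such values cannot exclude a pairing. With the replicate number as a block edgeR called 0 genes (1043 at an unadjusted p under 0.05, against 1275), FKBP4 had an adjusted p of 0.547 and DDX5 a log2 fold change of -0.0016. With 3 libraries a stage, an interval that holds 0 does not show that a gene is unchanged. Differences of the sizes inside it remain possible.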
